A study of Homo sapiens with 8 samples.

Results

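The response of HT29 cells to ICG-001 was described across all genes from 4 of the 8 RNA libraries of the series: 2 from cells given 10 µM ICG-001 and 2 from cells given the solvent DMSO at 0.1%. These libraries were chosen by their titles. HT29 is an established human colorectal adenocarcinoma cell line, and every library came from it. The labels give an exposure of 48 h for 3 of the 4 libraries and of 49 h for replicate 2 of ICG-001. They do not say whether the replicates were separate cultures, so the p-values cover only library-to-library spread and that may be of technical origin. The other 4 libraries, with CWP232228 at 1.5 µM or YB-0158 at 0.3 µM, entered the statistical model for its estimate of spread.

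ICG-001 is a small molecule known for binding CREBBP, a histone acetyltransferase that serves as a coactivator of many transcription factors, beta-catenin among them. In colorectal cancer cells beta-catenin is often held active by mutations of the pathway that normally degrades it, and its partner in the nucleus then drives growth genes. In later work ICG-001 was also described as a ligand of KHDRBS1, an RNA-binding protein. The integrated stress response, in which the transcription factor ATF4 raises genes of amino acid supply, and the hypoxia response, in which hypoxia-inducible factors raise genes such as CA9, are 2 further programmes whose genes appear below.

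The DMSO libraries held 29071547 and 29779369 estimated reads and the ICG-001 libraries 55020460 and 43395915. Levels are given as counts scaled to library size (CPM) and are not corrected for gene length. The controls were the less even group: replicate log2 differences over 8568 genes had an SD of 0.30 in DMSO and 0.12 with ICG-001. These differences, replicate 1 minus replicate 2, had a Spearman rho with GC content of -0.61 in DMSO and 0.79 with ICG-001. The differences between the groups also followed base composition. Across genes, which are not independent replicates, the log2 fold change had a Spearman rho of -0.43 with GC content and 0.35 with length. Counts below are therefore given from the uncorrected fit and from a fit with an offset for GC content and length, called the corrected fit.

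**Figure D1:**
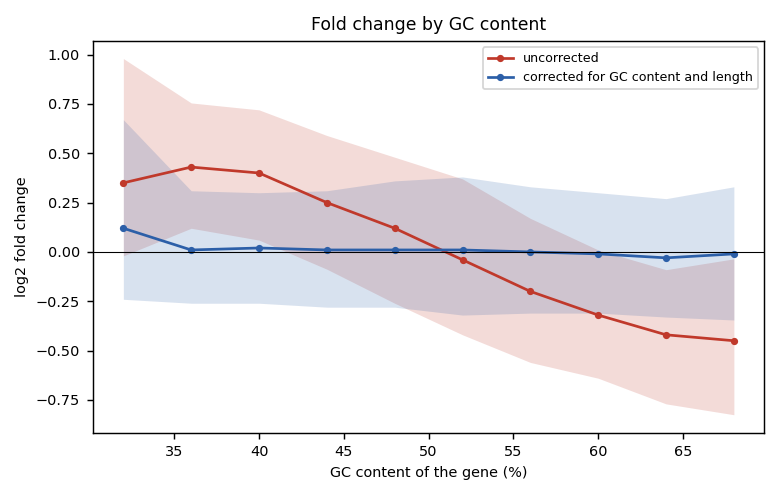
Median log2 fold change of ICG-001 against DMSO (vertical axis) in bins of gene GC content in percent (horizontal axis), with the middle 50% of genes shaded. Before correction (red) the median falls with GC content beyond the lowest bin, with a rho of -0.43 across genes, and in the corrected fit (blue) the rho is -0.03.

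Of 16449 genes tested, 8025 (48.8%) passed an adjusted p under 0.05 in edgeR's quasi-likelihood test. Of all genes tested, 24.8% were higher (4075 genes) and 24.0% lower (3950 genes) with ICG-001, and the median log2 fold change was 0.03. In the corrected fit 23.2% were higher and 24.1% lower. The same direction was called in both fits for 5407 genes, 2715 higher and 2692 lower, and opposite directions for 129. In the uncorrected fit and all 13 alternative settings, 3648 genes (22.2%) were called the same way, 10.3% higher and 11.9% lower. These shares are the background for every count of a gene list. In size, 1048 called genes were higher and 837 lower by at least 1 on the log2 scale, 236 and 127 by at least 2, and 100 and 31 by at least 3. At a mean log2 CPM of at least 1, the last step held for 14 higher and 4 lower genes. The model takes 1 spread per gene for all groups, which may understate that of the DMSO libraries. Their replicate SD was 0.30, against 0.12 with ICG-001, 0.13 with CWP232228 and 0.11 with YB-0158. In the fit with the 4 libraries only, 6088 genes were called. Without replicate 2 of ICG-001, with 1 library left in the group, 5140 genes were called, 2442 higher and 2698 lower.

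**Figure D2:**
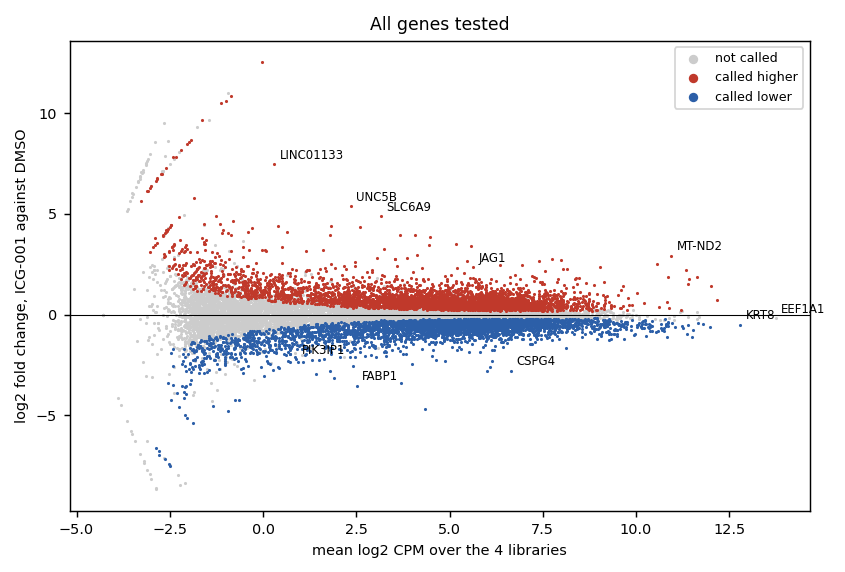
Log2 fold change of ICG-001 against DMSO (vertical axis) against the mean log2 CPM of the 4 libraries (horizontal axis) for all 16449 genes tested. Red points are the 4075 genes called higher and blue points the 3950 called lower. The lines of points at low level are genes at or near 0 in 1 group, whose fitted fold depends on the prior count.

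Among the 25 largest rises, promoters were searched for 1 motif. The 8-letter motif TGATGNAA, a form of the composite element that ATF4 binds with a C/EBP partner, was searched on both strands in the 250 bases before the start of each gene in RefSeq promoters of GRCh38.p14. It was present in 6 of the 20 promoters that matched a gene of the 25 largest rises and in 0 of 16 of the 25 largest falls. The share was 1.46% in the 11356 promoters of genes tested and 3.19% in all 27305. The rises and falls were ranked in these same data, and no test of these shares was made. The motifs were chosen with earlier results of these data known. A match is a description of the letters and no evidence of binding. The 6 windows follow in the direction of transcription, with the motif, or its reverse complement, in capitals.
ASNS: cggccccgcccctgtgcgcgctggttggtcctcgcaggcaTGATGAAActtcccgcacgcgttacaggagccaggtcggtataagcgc
CHAC1: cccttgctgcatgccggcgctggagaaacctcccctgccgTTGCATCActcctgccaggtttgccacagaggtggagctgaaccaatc
IL20RB: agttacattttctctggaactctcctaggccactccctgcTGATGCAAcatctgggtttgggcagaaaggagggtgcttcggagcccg
GPX8: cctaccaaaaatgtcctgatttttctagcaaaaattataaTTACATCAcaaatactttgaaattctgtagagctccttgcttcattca
PRSS1: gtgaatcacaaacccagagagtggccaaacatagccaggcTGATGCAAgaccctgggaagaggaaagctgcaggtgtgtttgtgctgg
PRSS2: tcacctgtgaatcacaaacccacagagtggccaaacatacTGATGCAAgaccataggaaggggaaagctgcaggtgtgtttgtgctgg
They lie at chr7:97872429-97872516 on the minus strand (ASNS) and, on the plus strand, at chr15:40953222-40953309 (CHAC1), chr3:136957867-136957954 (IL20RB), chr5:55159942-55160029 (GPX8), chr7:142749299-142749386 (PRSS1) and chr7:142770797-142770884 (PRSS2). PRSS1 and PRSS2 are neighbouring copies with nearly the same sequence, so their windows are not independent.

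The motif ACGTGC, which holds the core letters recognised by hypoxia-inducible factors, was searched in the same way. It was present in 3 of the 16 promoters of the 25 largest falls (18.8%), in 1 of 20 of the 25 largest rises, in 7.5% of promoters of genes tested and in 5.85% of all. Each of the 2 motifs was searched on its own, and no test of the shares was made. The windows of the fallers that hold ACGTGC are shown because their genes are among the leading falls.
CA9: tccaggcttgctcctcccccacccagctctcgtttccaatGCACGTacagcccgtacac
ALDOC: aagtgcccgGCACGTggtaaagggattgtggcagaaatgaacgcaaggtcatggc
MIR210HG: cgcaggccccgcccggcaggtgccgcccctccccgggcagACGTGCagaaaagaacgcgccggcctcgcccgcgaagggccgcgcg
They lie at chr9:35673869-35673927 on the plus strand (CA9), and on the minus strand at chr17:28577091-28577145 (ALDOC) and chr11:568582-568667 (MIR210HG).

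The largest rise at a mean log2 CPM of at least 1 was that of UNC5B, a netrin receptor on chromosome 10 (71212570 to 71302864, GRCh38). UNC5B stood at 0.626 and 0.919 CPM in DMSO and at 33.0 and 31.2 CPM with ICG-001 (log2 fold change 5.37, SE 0.16). SLC6A9, a glycine transporter, followed, with 1.50 and 1.73 CPM in DMSO and 49.1 and 45.9 CPM with ICG-001. Next came BEST1, a chloride channel, from 0.869 and 0.636 to 16.1 and 15.3 CPM (4.37, SE 0.19), and ULBP1, a stress-induced ligand for a receptor of natural killer cells, from 1.77 and 0.919 to 26.9 and 28.0 CPM (4.34, SE 0.23). In each of these 4 genes both ICG-001 libraries lay more than 10 times above both DMSO libraries.

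Genes of amino acid supply and glutathione turnover were also among the 25. CHAC1, an enzyme that degrades glutathione, rose from 6.08 and 5.73 to 88.5 and 79.9 CPM (3.83, SE 0.14). PSAT1, of serine synthesis, rose from 87.6 and 75.9 to 539 and 576 CPM, and ASNS, asparagine synthetase, from 66.4 and 68.8 to 402 and 449 CPM. SLC1A4, a carrier of small neutral amino acids, rose from 15.5 and 19.3 to 111 and 113 CPM. The 2 replicates of a treated pair differed little beside the distance between the groups. NIBAN1, a stress-induced protein, rose by 3.45 (SE 0.12), and the secreted peptide ADM2 by 2.96 (SE 0.12) on the log2 scale.

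A second set encodes surface and secreted proteins. The adhesion molecules CEACAM6 and CEACAM5 rose together, CEACAM6 from 11.2 and 9.97 to 120 and 121 CPM (3.51, SE 0.12) and CEACAM5 from 4.59 and 4.17 to 30.5 and 29.4 CPM (2.77, SE 0.13). IL20RB, a receptor subunit for several interleukins, rose from 2.82 and 3.25 to 28.9 and 29.1 CPM. The trypsinogen genes PRSS1 and PRSS2 rose by 3.93 (SE 0.12) and 3.95 (SE 0.17). Because they share sequence, how reads were divided between them is uncertain, while both stood above DMSO. TRPV6, an epithelial calcium channel, rose by 2.62, and the peptidylarginine deiminase PADI2 by 2.82. The remaining genes of the 25 were NEBL, LONRF2, CLGN, TUBE1, GPX8, MT-ND2, MT-ATP8 and MTND2P28. NEBL summed to 0.37 of its mean in the authors' deposited table, so its level rests on part of its transcripts. MTND2P28 is a nuclear copy of MT-ND2, and its reads cannot be told apart from those of the mitochondrial gene with certainty.

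**Figure D3:**
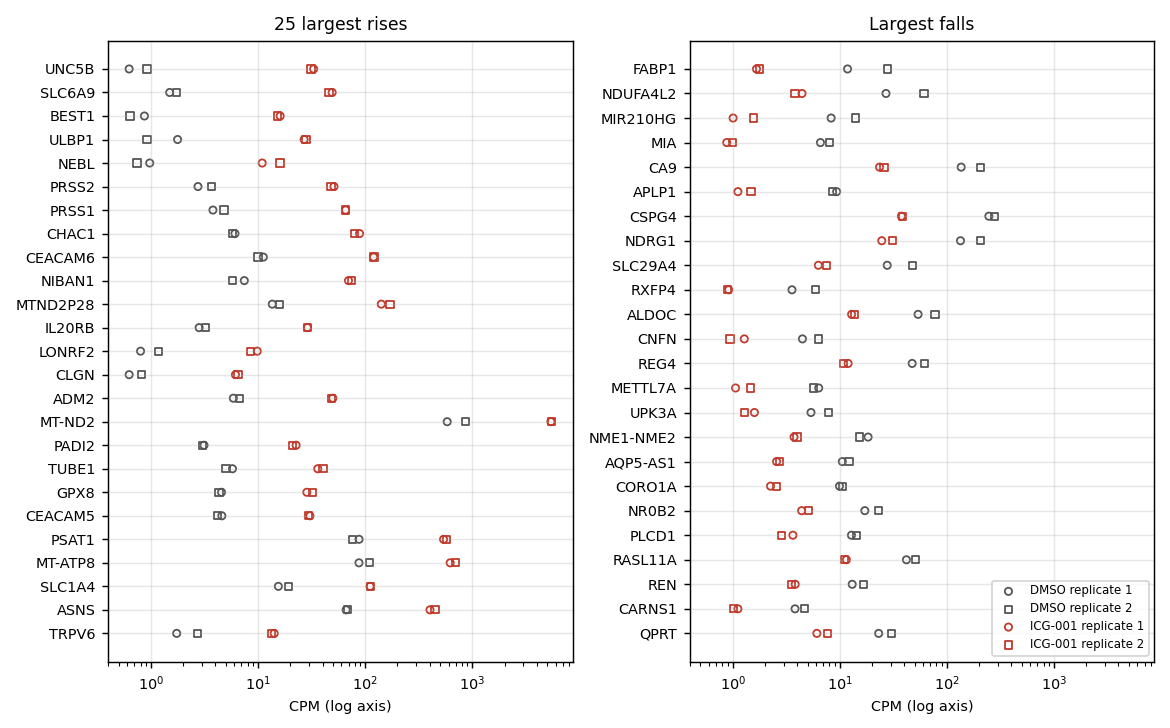
CPM on a log axis in each of the 4 libraries for the 25 genes with the largest rise (left) and 24 of the 25 with the largest fall (right), at a mean log2 CPM of at least 1. Grey symbols are DMSO and red symbols ICG-001, circles replicate 1 and squares replicate 2, and in each gene shown the 2 groups do not overlap, which the choice of genes required.

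Among the largest falls, FABP1, an intestinal fatty acid carrier on chromosome 2 (88122982 to 88128116), went from 11.8 and 28.1 to 1.67 and 1.79 CPM (-3.53, SE 0.48). The DMSO libraries of FABP1 differ by more than 2 times, and without DMSO replicate 2 its value was -2.79. NR0B2, a nuclear receptor that represses bile acid synthesis genes, fell from 17.1 and 23.1 to 4.41 and 5.12 CPM (-2.08, SE 0.16).

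Several genes known to respond to hypoxia were among the 25 largest falls. CA9, a carbonic anhydrase at the cell surface, stood at 136 and 206 CPM in DMSO and at 23.5 and 25.9 CPM with ICG-001 (-2.79, SE 0.20). NDRG1, a stress- and hypoxia-responsive gene, fell from 134 and 205 to 24.7 and 31.0 CPM. NDUFA4L2 fell from 27.0 and 61.2 to 4.44 and 3.82 CPM, MIR210HG from 8.31 and 13.9 to 1.01 and 1.56 CPM, and the glycolytic aldolase ALDOC from 53.8 and 77.4 to 12.9 and 13.7 CPM. In each of these 5 genes DMSO replicate 2 was the higher control, and the 2 groups did not overlap. Without DMSO replicate 2 their log2 fold changes were between -2.72 (NDUFA4L2 and MIR210HG) and -2.03 (ALDOC).

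The proteoglycan CSPG4 fell with a small error, from 246 and 278 to 37.6 and 38.8 CPM (-2.78, SE 0.08). REG4, a secreted lectin of the gut, fell from 47.4 and 62.3 to 11.97 and 10.8 CPM, and RASL11A, a small GTPase, from 41.9 and 51.0 to 11.5 and 11.1 CPM. The 10 falls with the smallest p included, beside CSPG4, the genes COL9A3, GABRP, BTG2, FGFR4, TK1, ARHGEF19, EMP2 and LIG1, with log2 fold changes between -1.27 (LIG1) and -1.78 (COL9A3). APLP1 fell by 2.78 on the log2 scale but summed to 0.45 of the authors' deposited mean. NME1-NME2 is a readthrough transcript that shares its sequence with NME1 and NME2, so its level (-2.12) is uncertain. LINC01133, a long noncoding RNA among the 10 rises with the smallest p, held 4 reads in the DMSO libraries together and 1247 with ICG-001, a ratio of 184 after scaling (95% counting interval 71.5 to 675, counting error only), and summed to 0.60 of the authors' deposited mean.

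Ranking by the gain in CPM rather than by fold gave other genes. The rises added up to 152851 CPM over all genes and the falls to 168177 CPM. The 10 largest gains made up 21.8% of the first sum and the 10 largest losses 9.8% of the second, and 238 genes were needed for 50% of the gain. Of the 10 largest gains, 8 were mRNAs of the mitochondrial genome, which encodes subunits of the respiratory chain. The 13 mitochondrial mRNAs together stood at 9125 and 14778 CPM in the DMSO libraries and at 43992 and 44258 CPM with ICG-001, and took 21.0% of the summed gain. MT-ND2 rose from 583 and 867 to 5415 and 5496 CPM (2.91, SE 0.18), while MT-ND3 rose from 189 and 257 to 465 and 489 CPM (1.10, SE 0.14), so transcripts of the same genome had different fold changes; MT-ND3 was chosen after its values were seen. In each of the 13, both ICG-001 libraries lay above both DMSO libraries.

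**Figure D4:**
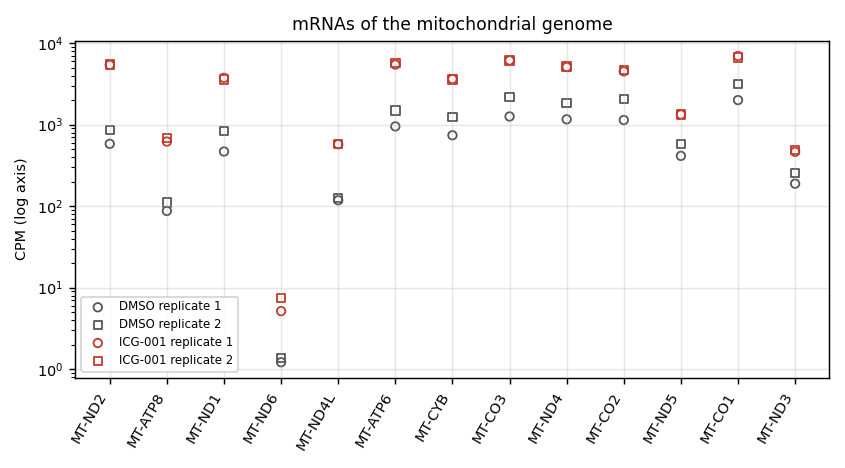
CPM on a log axis (vertical) of the 13 mRNAs encoded by the mitochondrial genome (horizontal, ordered by fold change) in each library. Grey symbols are DMSO and red symbols ICG-001, circles replicate 1 and squares replicate 2. In all 13 the ICG-001 libraries lie above the DMSO libraries.

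The other 2 of the 10 gains were FTH1, the ferritin heavy chain that stores iron, from 3231 and 4035 to 6050 and 5885 CPM, and SLC7A5, a carrier of large neutral amino acids, from 237 and 232 to 1231 and 1138 CPM (2.34, SE 0.10). Among the losses, the elongation factor EEF2 fell from 3581 and 3859 to 1873 and 1877 CPM (-0.99, SE 0.08), and the ribosomal protein genes RPL13A, RPL3, RPL7A and RPS2 fell by between 0.69 (RPS2) and 1.12 (RPL13A) on the log2 scale. After correction RPL13A stood at -0.69, RPL3 at -0.71, RPL7A at -0.41 and RPS2 at -0.15. KRT8 and KRT18, the keratins of simple epithelia, stood at -0.51 and -0.60, and at -0.13 and -0.16 after correction. GAPDH stood at -0.47 and at -0.05 after correction (edgeR adjusted p = 0.48), and EEF1A1 was not called (-0.19, edgeR adjusted p = 0.13), but was without DMSO replicate 1 (-0.24, edgeR adjusted p = 0.0099), after correction (-0.15, edgeR adjusted p = 0.031) and with DESeq2 (-0.20).

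The genes of the compound's named binding partners were looked at next. CREBBP stood at 75.9 and 62.0 CPM in DMSO and at 116 and 105 CPM with ICG-001 (0.68, SE 0.11), and at 0.41 after correction. Its paralogue EP300 was not called (0.68, SE 0.31, edgeR adjusted p = 0.12), with DMSO libraries at 64.6 and 30.7 CPM. Without DMSO replicate 1 it was called at 1.32, and without DMSO replicate 2 it stood at 0.22. It was also called without the low-count filter (0.71) and by limma voom (0.78), and stood at 0.28 after correction. KHDRBS1 stood at 246 and 216 CPM in DMSO and at 206 and 223 CPM with ICG-001, and was not called (-0.11, edgeR adjusted p = 0.31), but was at -0.22 without DMSO replicate 2 (edgeR adjusted p = 0.032) and at -0.18 after correction (edgeR adjusted p = 0.033). CTNNB1, which encodes beta-catenin, stood at 0.19 (edgeR adjusted p = 0.048) and at 0.03 after correction (edgeR adjusted p = 0.62). This call held in 2 of the 13 alternatives, and ended without DMSO replicate 2 (0.11) and without either ICG-001 library (0.23 and 0.16). The growth gene MYC fell from 249 and 237 to 192 and 169 CPM (-0.43, SE 0.09, corrected -0.28; -0.34 and not called without ICG-001 replicate 2, edgeR adjusted p = 0.053), and BIRC5, a mitotic inhibitor of apoptosis, from 105 and 108 to 46.8 and 50.8 CPM (-1.13, SE 0.08).

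Chromatin genes were described in 16 lists. Heterochromatin and high-mobility-group proteins package DNA. Of 21 tested members, 0 were called higher and 12 lower (2 and 15 corrected, 0 and 7 in every setting), with a median of -0.31. HMGB2, a DNA-bending protein of dividing cells, fell from 215 and 213 to 108 and 113 CPM (-0.96, SE 0.06), and LMNB2, a nuclear lamin, by 0.69 on the log2 scale. Histone chaperones bind histones and load them onto DNA. Of 23, 2 were higher and 12 lower (0 and 16 corrected, 0 and 8 in every setting), with a median of -0.19. The 2 called higher before correction were UBN1 and UBN2. MCM2 fell from 294 and 284 to 148 and 150 CPM, and CHAF1A and CHAF1B, subunits of the chromatin assembly factor, by 0.73 and 0.75. Of 10 histone variants and linkers, 1 was higher and 6 lower (3 and 5 corrected). H2AX, a variant known for marking DNA breaks, fell from 226 and 246 to 114 and 105 CPM (-1.10, corrected -0.58).

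Among the enzymes that write and erase histone marks, lysine methyltransferases and demethylases had more members higher than lower before correction for base composition and length, and fewer after it. Of 38 lysine methyltransferases, 18 were higher and 9 lower, and 5 and 11 after correction. SUV39H1, which writes a silencing mark of heterochromatin, fell from 39.5 and 39.5 to 20.9 and 19.9 CPM (-0.95, SE 0.08, corrected -0.75), and KMT2C stood at 1.15 and, corrected, at 0.32. Of 16 acetyltransferases, 7 were higher and 2 lower (5 and 2 corrected). The circadian factor CLOCK had the largest of these rises, from 22.7 and 12.3 to 42.6 and 44.4 CPM (1.31, corrected 0.55), and KAT2A and KAT5 fell by 0.55 and 0.66 (corrected -0.32 and -0.36). Of 17 deacetylases and sirtuins, 2 were higher and 5 lower (5 and 5 corrected), with a median of -0.07 that became 0.00 after correction. In the uncorrected fit SIRT1 was called higher, while HDAC11 fell from 27.7 and 29.8 to 13.2 and 12.4 CPM, HDAC5 by 1.05 and HDAC1 by 0.63. Of 22 lysine demethylases, 9 were higher and 3 lower (5 and 6 corrected). Of 16 genes of DNA methylation, 4 moved each way (2 and 3 corrected), and the methyltransferases DNMT1 and DNMT3B fell by 0.46 and 0.61.

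Reader and remodelling complexes were counted in the same way. Bromodomain readers had 11 of 24 higher and 3 lower, against 2 and 7 after correction. Cohesin and condensin, the ring complexes that fold chromosomes, had 9 of 25 higher and 6 lower, against 3 and 15. Within that list, the condensin subunit NCAPH fell from 63.1 and 58.9 to 31.2 and 31.7 CPM (-0.96, corrected -1.08), whereas SMCHD1 stood at 1.29, and at 0.65 corrected. SWI/SNF subunits had 7 of 24 each way (6 and 8 corrected), with SMARCD3 at -0.98 (corrected -0.59) and SMARCA2 at 0.70. ISWI, CHD and INO80 remodellers had 12 of 32 higher and 5 lower (7 and 11 corrected). Polycomb genes had 6 of 35 higher and 5 lower (6 and 9 corrected), and BMI1 rose by 0.82 (corrected 0.53). Mediator subunits had 12 of 32 higher and 10 lower (9 and 11 corrected), elongation factors 10 of 28 and 8 (8 and 12 corrected), and arginine methyltransferases 2 of 10 each way (3 and 1 corrected). HEXIM2, an inhibitor of the elongation kinase, fell by 1.28 (corrected -0.76), and the kinase CDK9 itself by 0.65 (corrected -0.40).

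**Figure D5:**
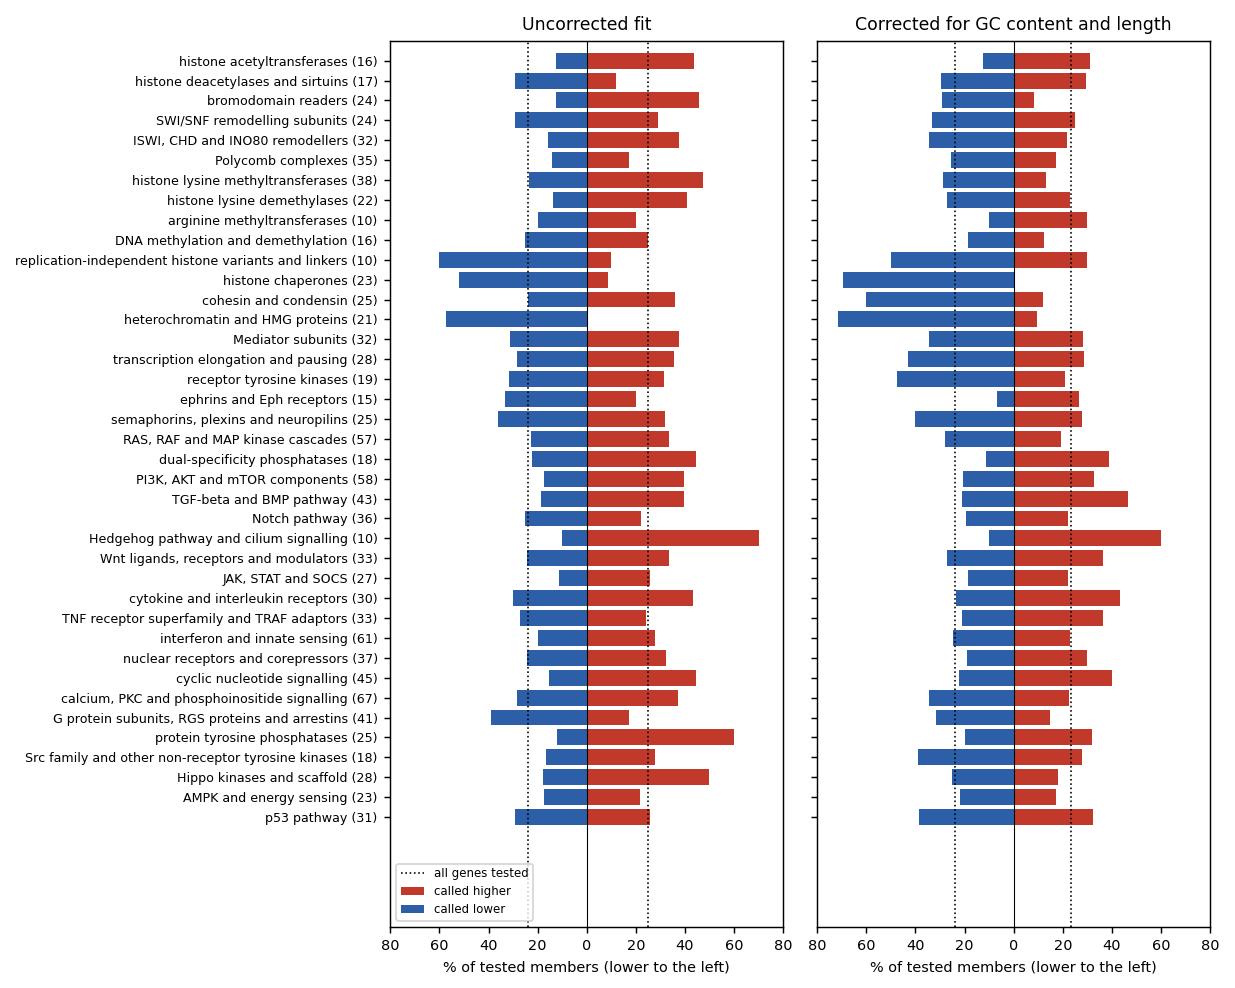
Share of the tested members called higher (red, to the right) and lower (blue, to the left) in each chromatin and signalling list, in the uncorrected fit (left panel) and the fit corrected for GC content and length (right panel). Numbers in parentheses are tested members, and dotted lines give the share of all genes tested, 24.8% higher and 24.0% lower uncorrected and 23.2% and 24.1% corrected.

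Of the signalling lists, the Hedgehog pathway had the highest share of members called. Of 10 tested, 7 were higher and 1 lower (6 and 1 corrected, 5 and 0 in every setting), with a median of 0.57. The transcription factor GLI2 rose from 0.765 and 1.31 to 5.34 and 4.30 CPM (2.22, SE 0.24), its target and the pathway's receptor PTCH1 from 23.1 and 14.9 to 36.3 and 34.2 CPM, and the ligand SHH by 0.82. The ligand IHH fell by 0.67 (corrected -0.32), a call that ended without ICG-001 replicate 2 (edgeR adjusted p = 0.053). The TGF-beta and BMP pathway had 17 of 43 higher and 8 lower (20 and 9 corrected), and 11 higher without ICG-001 replicate 2. The signal transducer SMAD3 rose from 153 and 134 to 283 and 270 CPM, the stress-induced ligand GDF15 from 126 and 136 to 305 and 259 CPM, and the decoy receptor BAMBI fell from 10.8 and 11.2 to 3.29 and 4.27 CPM (-1.55, SE 0.17).

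In the Notch pathway 8 of 36 were higher and 9 lower (8 and 7 corrected), close to the background. Its ligands went apart. JAG1 rose from 26.6 and 18.2 to 115 and 112 CPM (2.34, SE 0.16), and DLL1 fell from 2.12 and 1.34 to 0.624 and 0.661 CPM (-1.43, SE 0.30). HES6, a factor that counteracts the Notch effector HES1, fell from 37.0 and 43.7 to 14.9 and 14.6 CPM (-1.45, corrected -0.89). Wnt ligands, receptors and modulators had 11 of 33 higher and 8 lower (12 and 9 corrected), with a median of 0.14 (corrected 0.04). In the uncorrected fit LRP6 and FZD6 were among the members called higher. The receptor FZD2 fell from 3.62 and 4.49 to 1.12 and 1.298 CPM (-1.75, SE 0.20).

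Receptors for cytokines were often called, with 13 of 30 higher and 9 lower (13 and 7 corrected, 7 and 4 in every setting). IL6R, the receptor chain for interleukin 6, rose from 3.93 and 3.36 to 15.1 and 16.1 CPM (2.10, SE 0.12). Its signalling partner IL6ST stood at 1.56 but summed to 0.29 of the authors' deposited mean. IL27RA fell from 2.29 and 2.76 to 0.459 and 0.448 CPM (-2.47, SE 0.30). Of 27 JAK, STAT and SOCS genes, 7 were higher and 3 lower (6 and 5 corrected). The kinase JAK2 rose by 1.41 and JAK3 fell by 1.33. Interferon and innate sensing genes had 17 of 61 higher and 12 lower (14 and 15 corrected). The antiviral gene OAS2 rose by 1.28, and IFITM3, which blocks virus entry, fell from 33.3 and 36.5 to 10.0 and 11.2 CPM (-1.71, SE 0.10).

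Growth factor receptors and their cascades moved both ways. Of 19 receptor tyrosine kinases, 6 were higher and 6 lower (4 and 9 corrected). FGFR4 fell from 145 and 160 to 49.7 and 49.2 CPM (-1.62, SE 0.08). MET rose from 344 and 252 to 602 and 649 CPM (1.07, corrected 0.51), and EGFR from 99.2 and 65.7 to 171 and 168 CPM (1.04, corrected 0.43). RAS, RAF and MAP kinase genes had 19 of 57 higher and 13 lower (11 and 16 corrected), with RRAS at -1.30 (corrected -0.69) and MAPK11 at 0.98. Dual-specificity phosphatases, some of which switch MAP kinases off, had 8 of 18 higher and 4 lower (7 and 2 corrected). DUSP5 stood at 0.80, while DUSP6 and DUSP7 were among the 4 called lower before correction. PI3K, AKT and mTOR components had 23 of 58 higher and 10 lower (19 and 12 corrected, 11 and 2 in every setting). The translation repressor EIF4EBP1 rose from 19.2 and 21.8 to 57.0 and 55.0 CPM (1.45, SE 0.10), and the mTOR inhibitor DEPTOR from 13.2 and 12.9 to 29.4 and 29.7 CPM. PIK3IP1, an inhibitor of PI3K, fell from 3.06 and 4.84 to 0.991 and 0.684 CPM (-2.22, SE 0.29). Without ICG-001 replicate 1 the counts of this list were 15 and 6, and without replicate 2 they were 12 and 5.

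In the p53 pathway 8 of 31 were higher and 9 lower (10 and 12 corrected). SESN2, a leucine sensor that restrains mTOR, rose from 25.1 and 25 to 89.2 and 85.4 CPM (1.80, SE 0.10), and BTG2, an inhibitor of proliferation, fell from 71.9 and 72.3 to 22.4 and 21.3 CPM (-1.72, SE 0.08). Protein tyrosine phosphatases had 15 of 25 higher and 3 lower, against 8 and 5 corrected, and PTPRM rose by 1.76. Hippo kinases and scaffolds had 14 of 28 higher and 5 lower, against 5 and 7 corrected, with FAT1 at 1.45 and, corrected, 0.65. Semaphorins, plexins and neuropilins had 8 of 25 higher and 9 lower (7 and 10 corrected), and the co-receptor NRP1 rose from 18.8 and 15.4 to 55.5 and 54.0 CPM (1.68, SE 0.10). Cyclic nucleotide genes had 20 of 45 higher and 7 lower (18 and 10 corrected), with the kinase PRKG2 at 1.87. G protein subunits, RGS proteins and arrestins had 7 of 41 higher and 16 lower (6 and 13 corrected), with GPSM3 at -1.61 and RGS10 at -1.26.

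The remaining signalling lists are given by their counts in both fits. Ephrins and their receptors had 3 of 15 higher and 5 lower (4 and 1 corrected), and EFNB2 rose by 1.16. TNF receptors and adaptors had 8 of 33 and 9 (12 and 7 corrected), nuclear receptors and corepressors 12 of 37 and 9 (11 and 7), and calcium, PKC and phosphoinositide genes 25 of 67 and 19 (15 and 23). Non-receptor tyrosine kinases had 5 of 18 and 3 (5 and 7), with LYN at -0.75 and FYN at 0.73, and AMPK and energy sensing genes 5 of 23 and 4 (4 and 5).

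Families were grouped by gene symbol. Those with the 8 lowest and 8 highest medians in the uncorrected fit, among families with at least 5 tested members, are described. The lowest medians were those of aquaporins (-1.08), apolipoproteins (-0.90), S100 proteins (-0.59), acyl-CoA synthetases (-0.55), tubulins (-0.52), septins (-0.48), APOBEC and ADAR deaminases (-0.44) and glutathione S-transferases (-0.42). After correction these medians were -0.81, -0.51, -0.18, -0.46, -0.33, -0.54, -0.33 and -0.30, in the same order. SOX factors (-0.35) and serpins (-0.32) had lower corrected medians than S100 proteins and glutathione S-transferases. The summed level of apolipoproteins was higher with ICG-001 (192.0 to 199.6 CPM) than in DMSO (144.0 to 156.0 CPM). That of APOBEC and ADAR deaminases was also higher (414.8 to 418.2 against 281.7 to 322.9 CPM). In the rest of the 8 families with the lowest medians the summed level was lower. Aquaporins, which conduct water and glycerol, had 0 of 6 higher and 3 lower in both fits, with AQP5 down from 59.5 and 74.0 to 19.6 and 20.4 CPM and AQP3 from 72.02 and 68.9 to 29.5 and 29.4 CPM. Acyl-CoA synthetases, which activate fatty acids, had 0 of 10 higher and 7 lower (0 and 9 corrected). ACSS2 fell from 30.8 and 34.2 to 15.2 and 15.8 CPM and ACSL1 from 60.5 and 54.9 to 31.2 and 32.4 CPM. Apolipoproteins had 2 of 10 higher and 6 lower in both fits, with APOL3 at -1.84 and APOL6, the exception in size, at 2.30 and, corrected, at 1.48 (19.9 and 13.5 to 81.4 and 83.8 CPM).

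Tubulins, the subunits of microtubules, had 2 of 14 higher and 10 lower (2 and 8 corrected). TUBB4B fell from 941 and 1043 to 429 and 416 CPM, while TUBE1, a centriolar tubulin, was among the 25 largest rises (5.77 and 5.02 to 36.1 and 40.4 CPM). S100 proteins had 1 of 13 higher and 8 lower (3 and 6 corrected), and their median moved to -0.18 after correction. Septins had 1 of 10 higher and 4 lower (0 and 6), glutathione S-transferases 1 of 10 and 8 (1 and 5), and APOBEC and ADAR deaminases 2 of 6 and 3 (2 and 2).

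The highest medians were those of SLCO organic anion transporters (0.76), kallikreins (0.62), interleukins (0.60), laminins (0.49), fibroblast growth factors (0.47), cadherins and protocadherins (0.47), chemokines (0.44) and myosins (0.39). After correction these medians were 0.44, 0.72, 0.52, 0.24, 0.82, 0.26, 0.53 and 0.14, in the same order. Keratins (0.47), cytochromes P450 (0.36) and aldo-keto reductases (0.31) had higher corrected medians than laminins, cadherins and myosins. Laminins, of the basement membrane, had 5 of 8 higher and 1 lower (4 and 2 corrected). Cadherins had 6 of 26 higher and 2 lower (7 and 2 corrected). CDH17, the intestinal cadherin, rose from 1.50 and 1.49 to 6.61 and 6.70 CPM, and CDH3 fell from 16.8 and 16.4 to 6.66 and 8.31 CPM. Kallikreins, secreted serine proteases, had 4 of 9 each way (4 and 2 corrected), with KLK10 up from 120 and 142 to 288 and 257 CPM. Myosins had 9 of 18 higher and 2 lower (7 and 2 corrected), with MYO10 at 0.97. In the other 4 families, 3 of 7 SLCO transporters were higher and 1 lower (3 and 0 corrected), and 4 of 9 interleukins and 1 (3 and 0). Fibroblast growth factors had 2 of 5 and 0 (2 and 1), and chemokines 3 of 13 and 2 (3 and 3). The summed level of chemokines was lower with ICG-001 (48.8 to 59.4 CPM) than in DMSO (63.3 to 67.6 CPM). That of SLCO transporters lay within the DMSO range (78.0 to 79.6 against 76.8 to 82.8 CPM). Those of interleukins, at most 21.6 CPM, and of fibroblast growth factors were higher. Of 39 listed interleukins 9 were tested, of 39 chemokines 13 and of 22 fibroblast growth factors 5, so their medians rest on few genes. No interleukin was called in every setting.

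Some large families changed with the correction. Zinc finger genes named ZNF had 142 of 421 higher and 52 lower, against 77 and 71 corrected, with a median of 0.21 that became -0.03. Ubiquitin-specific proteases had 24 of 45 higher and 5 lower, against 10 and 11, and importins, exportins and nucleoporins 19 of 42 and 4, against 7 and 14. Cytochromes P450 did not: 10 of 26 were higher and 1 lower, and 13 and 2 corrected. These families were chosen after their values were seen. Among the P450 genes, CYP1B1, which oxidises steroids and aromatic compounds, rose from 25.3 and 16.1 to 68.8 and 61.3 CPM (1.65, SE 0.20).

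Protein-coding genes were called in 53.4% of 13260, with 3461 higher and 3623 lower (3093 and 3758 corrected). Long intergenic RNAs were called in 30.7% of 749, with 143 higher and 87 lower (154 and 63 corrected), and transcribed unprocessed pseudogenes in 42.7% of 260, with 92 higher and 19 lower (106 and 13 corrected). The kit does not mark strand, so reads of antisense RNAs and of overlapping genes cannot be told apart.

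Markers of the labelled cell type were present. All 14 markers of colorectal epithelium were tested, and their summed level was between 15745 and 18315 CPM in DMSO and between 12314 and 12748 CPM with ICG-001. Of them, 5 were higher and 8 lower with a median of -0.40, and 7 moved each way with a median of 0.03 after correction. Before correction CEACAM5 and CDH17 showed the largest rises among them and TFF3, a secreted peptide of goblet cells, the largest fall (-1.03, corrected -0.50). Of 10 fibroblast markers 2 passed the low-count filter (summed 5.0 and 5.1 CPM in DMSO, 4.2 and 4.5 with ICG-001), of 10 leukocyte markers 3 (13.8 and 16, 7.1 and 7.3 CPM) and of 8 endothelial markers 2 (2.2 and 3.0, 1.7 and 1.9 CPM). Whether these low levels take part in any result was not tested.

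The same genes had values of their own under the other compounds, which were given at other doses and set against the same DMSO libraries, so no comparison between compounds is made. For UNC5B the log2 fold change was 5.37 with ICG-001, 3.27 with CWP232228 and 5.0 with YB-0158. For CSPG4 the values were -2.78, -1.22 and -2.10, and for CA9 -2.79, -1.59 and -2.54. FTH1 stood at 0.72, 0.00 and 0.68. For SLC7A5 they were 2.34, 1.54 and 2.26. The authors' deposited table for ICG-001 gives a log2 fold change of 5.37 for UNC5B. Of 16191 genes tested here with an adjusted p in the authors' deposited table, that table calls 5945 at 0.05, and 5379 of these were called in the same direction here and 9 in the opposite one.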

How the data were processed

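RNA from HT29 cells was sequenced from TruSeq RNA v2 libraries, which do not mark strand, on an Illumina NextSeq, per the labels' protocols. Named in the submitters' processing notes are the build GRCh38 and the tools fastp, DESeq2 and Salmon 1.3.0. Per the file headers, the authors deposited Salmon's estimated counts for each transcript of each library. The authors' deposited table for ICG-001 gives a log2 fold change, a p-value and a mean signal of normalized counts per gene. FPKM and TPM values, which the authors also deposited, entered no test. Which transcriptome release was used is not given in the sources used here.

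Of 228754 transcripts, 89.5% were matched to GENCODE 29, and their estimated counts were rounded after summing by gene. Unmatched transcripts took 1.54% to 1.85% of a library's reads. All 8 libraries, of 29071547 to 58489118 estimated reads, entered 1 model with 4 groups (edgeR 4.0.16, R 4.3.3, TMM, filterByExpr, robust quasi-likelihood test, 4 residual degrees of freedom), with Benjamini-Hochberg adjustment over 16449 genes and calls at 0.05. Every adjusted p is from edgeR. A count of 0, which allows up to 3 reads, sets a floor of 0.055 to 0.103 CPM in the 4 libraries described, for counting error only. Each SE is the absolute log2 fold change divided by the square root of the F statistic of the quasi-likelihood test. It is therefore approximate, and may be too small for genes with few reads in DMSO.

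Alternatives were DESeq2's size factors in edgeR, DESeq2 1.42.0, limma 3.58.1 voom with sample weights, no low-count filter, 4 libraries only, offsets for GC content and length or for effective length, a replicate block with and without GC content and length, and leaving out each library. Named genes are the 25 largest rises and falls at a mean log2 CPM of at least 1 without overlap between groups, the 10 smallest p in each direction, the 10 largest gains and losses in CPM, up to 4 called members each way of a list, and 6 fixed genes. Members, lists and rules were chosen with earlier results of these data known, and lists were not tested as sets. Family patterns by symbol took protein-coding genes and were tidied after values were seen. CPM values use TMM-scaled library sizes. Some genes that the naming rule takes are not reported here.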

Additional observations from a re-analysis of the deposited data

How the results depend on the processing

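With 2 libraries a group, precision is limited by their number. The count of genes changed with ICG-001 was 8025, and leaving out 1 library in turn gave between 5140 and 9412, with 2442 to 5040 higher. Under the other alternatives it ran from 6088 (4 libraries only) to 8770 (no low-count filter), with DESeq2 at 6998 and limma voom at 6108. In each alternative the counts of all changed genes, of higher or lower genes and of changes of at least 2-fold stayed within 1.5 times, except without ICG-001 replicate 2. Of the 50 genes with the largest rises and falls, 37 stayed among them after correction for GC content and length, 38 without DMSO replicate 1, and 44 to 50 under the other settings without a block. Of 136 named genes, 128 kept their direction and call status in all 13 alternatives, and none reversed. These genes were mostly picked for large or clear changes in the uncorrected fit, which favours such stability. Of all 8025 genes called there, 3648 were called the same way in every setting.

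The replicate block gave 7478 called genes and, with GC content and length, 7510. Replicate numbers come from the titles alone, which name no shared batch. Deviations of same-numbered libraries correlated at 0.42 and 0.52 between ICG-001 and CWP232228 or YB-0158, but at -0.35, -0.37 and -0.28 between DMSO and ICG-001, CWP232228 and YB-0158. The replicate differences had a rho with GC content of -0.61 in DMSO and 0.79, 0.60 and 0.56 with ICG-001, CWP232228 and YB-0158. With DMSO numbers crossed, an alternative chosen after seeing the data, 8796 genes were called. The call of CTNNB1 ended with the block alone and with the correction alone, that of GAPDH with the correction, with or without the block, and that of KRT8 with both together only. List counts and medians moved most with the correction for GC content and length, in 77 of 177 values, with that correction and the block, in 74, and without ICG-001 replicate 2, in 64. The cause was not tested.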
